A study of Homo sapiens with 1 sample.

Results

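miR-203 and miR-205 are microRNAs (miRNAs) best known from squamous and keratinocyte epithelium, and their mature arms were read here on 1 array of colorectal cells. The members were the 6 mature miRNAs of the MIR203A, MIR203B and MIR205 hairpins, hsa-miR-203a-3p, hsa-miR-203a-5p, hsa-miR-203b-3p, hsa-miR-203b-5p, hsa-miR-205-5p and hsa-miR-205-3p, taken by name from the 2549 human miRNAs of the array. The array (n = 1) was of DLD-1, an established line from a human colorectal carcinoma, cultured in medium with fetal bovine serum and given a non-targeting siRNA (si-NC). The study sought drivers of metastasis in colorectal carcinoma and centred on circLONP2, a circular RNA from exons of LONP2. Its miRNA arrays, of cells with circLONP2 depleted or overexpressed, were a screen for miRNAs downstream of circLONP2. The knockdown and overexpression arrays were not analysed here. A single array allows neither a biological replicate nor a comparison between groups, so no p-value was computed. Every error given is technical, either from replicate spots or as estimated by the scanner software.

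As background, mature miRNAs are released from hairpin precursors by Drosha and Dicer, and either arm of the hairpin, 5p or 3p, can be retained. It directs silencing of messenger RNAs that pair with its seed, bases 2 to 8. In skin, miR-203 accumulates as keratinocytes leave the basal layer and differentiate, and it represses TP63, the transcription factor of basal stem cells. miR-205 is abundant in basal and squamous epithelium and, like the miR-200 family, represses the ZEB factors that drive loss of the epithelial state.

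The mature sequences are shown because the results differ by arm and because the arms of MIR203A and MIR203B come from opposite strands of a single locus. RefSeq gave a mature sequence for 6 of the 6 members, on the GRCh38.p14 build. The seed is in capitals.
miR-203a-3p: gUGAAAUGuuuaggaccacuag
miR-203a-5p: aGUGGUUCuuaacaguucaacaguu
miR-203b-3p: uUGAACUGuuaagaaccacugga
miR-203b-5p: uAGUGGUCcuaaacauuucaca
miR-205-5p: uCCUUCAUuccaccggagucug
miR-205-3p: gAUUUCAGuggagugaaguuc

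The members carried 6 different seeds. Among the 2248 miRNAs of the array with a RefSeq mature sequence, the only miRNA that shared a seed with a member was hsa-miR-6718-5p, which has that of miR-203b-5p (uAGUGGUCagagggcuuauga, seed in capitals). It was not detected, with 0 of 20 spots well above background.

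MIR203A lies on the plus strand at chr14:104117405-104117514 and MIR203B on the minus strand at chr14:104117418-104117503, so that all 86 bases of the MIR203B hairpin fall within that of MIR203A. miR-203a-3p (chr14:104117469-104117490) lies opposite miR-203b-5p (chr14:104117468-104117489), and miR-203a-5p (chr14:104117431-104117455) lies opposite miR-203b-3p (chr14:104117428-104117450). The pairs overlap by 21 and 20 bases, and each overlapping base is complementary. The overlapping part is in capitals below.
miR-203a-3p: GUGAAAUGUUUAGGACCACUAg
miR-203b-5p: UAGUGGUCCUAAACAUUUCACa
miR-203a-5p: AGUGGUUCUUAACAGUUCAAcaguu
miR-203b-3p: UUGAACUGUUAAGAACCACUgga

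**Figure D1:**
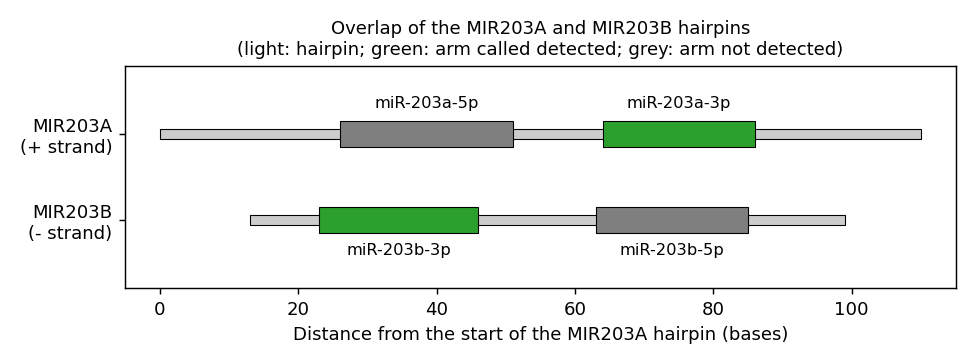
Map of the MIR203A hairpin (plus strand) and the MIR203B hairpin (minus strand) in bases from the start of MIR203A. Light bars are hairpins and thick bars are mature arms, green where the arm was called detected (miR-203a-3p and miR-203b-3p) and grey where it was not. The 2 detected arms lie over different parts of the locus and on opposite strands.

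MIR205 stands alone on another chromosome, inside the long noncoding RNA gene MIR205HG. Its hairpin (chr1:209432133-209432242, plus strand) is shown with the arms in capitals, since neither of them was called detected.
MIR205: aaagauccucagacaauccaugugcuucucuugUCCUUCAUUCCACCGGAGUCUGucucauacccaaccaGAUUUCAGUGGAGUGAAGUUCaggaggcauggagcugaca

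Each member had 2 probes of 10 spots, so that 12 probes and 120 spots were read. Intensity is the background-subtracted brightness of a spot in the units of the scanner. The 1000 negative control spots centred on an intensity of 0.0894 and reached 16.1 at their 99th percentile. The software marked 1.4% of those spots as well above background. No miRNA spot was saturated. The software flagged 9 of the 120 member spots as outliers, against 4.51% of all miRNA spots, and these were left out of means and SDs.

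The 3p arms of the miR-203 locus passed detection, and neither arm of miR-205 did. The software called miR-203a-3p and miR-203b-3p detected, 2 of the 6 members, while 44.4% of all 2549 miRNAs of the array were called detected. Detection here means that at least 1 probe of a miRNA had a total signal over 3 times its error. The lowest ratio of a detected miRNA was 3.00 and the highest of an undetected one was 2.99. Both detected members also passed 4 other rules. These asked for 1 probe with 50% or more of its spots well above background (37.9% of all miRNAs). Another asked that the median spot of the best probe exceed the 99th percentile of negative controls (34.8%). The next asked that every probe have 50% of its spots well above background (29.3%). The last asked for the call of the software together with a total gene signal of 5 or more (33.3%), so it could drop members but not add any. The members not called detected were miR-203a-5p, miR-203b-5p, miR-205-5p and miR-205-3p.

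miR-203a-3p, the guide strand to which the known functions of miR-203 are assigned, was the bright member. Its 20 spots ran from 1506 to 1893 with a median of 1683, and 20 of 20 were well above background. Probe A_25_P00010628 had a mean of 1618 ± 62.7 (SD, 10 spots) and probe A_25_P00010629 a mean of 1812 ± 79.6 (SD, 10 spots). Every spot of both probes lay far above the 99th percentile of the negative control spots, and the ranges of the probes overlapped. The total gene signal, which the software sums over the probes of a miRNA on a scale of its own, was 628 ± 44.5 (software error). The probes contributed 296 ± 29.6 and 331 ± 33.2 to it.

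The probes of miR-203a-3p differed by 0.16 ± 0.03 on the log2 scale (SE from replicate spots), which is 6.11 times that error. The difference was nevertheless small for this array. Over the 682 detected miRNAs with 2 probes above background, the median difference between probes was 0.32, with quartiles of 0.13 and 0.70. The coefficient of variation (CV) between spots was 3.87% for A_25_P00010628 and 4.39% for A_25_P00010629. For the 70 probes of the array with a mean within 1.5 times that of miR-203a-3p the median CV was 3.90%.

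miR-203b-3p, from the opposite strand, was detected close to background. Its 20 spots ran from 10.9 to 25.8 with a median of 18.0, and 16 of 20 were well above background. Probe A_25_P00017121 had a mean of 16.2 ± 4.67 (SD, 10 spots), with 6 of 10 spots well above background. Probe A_25_P00017122 had a mean of 19.6 ± 2.46 (SD, 10 spots), with 10 of 10. The spots of miR-203b-3p thus straddled the 99th percentile of the negative control spots, with 16 of 20 above it. Each probe passed the detection limit on its own, at 5.23 and 5.99 times its error.

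The total gene signal of miR-203b-3p was 6.55 ± 0.825 (software error), an error of 12.6% where that of miR-203a-3p was 7.09%. Its probes differed by 0.27 ± 0.14 on the log2 scale, 1.89 times the SE from replicate spots, so that a difference between them was not resolved. The CV between spots was 28.7% for A_25_P00017121 and 12.5% for A_25_P00017122. For the 539 probes of like brightness the median CV was 14.3%, with quartiles of 10.7% and 19.4%. The first probe was therefore more variable than most probes of its brightness, and the second was typical. Of the 1133 detected miRNAs, 28.1% had a best probe at or below the 5.99 of miR-203b-3p.

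**Figure D2:**
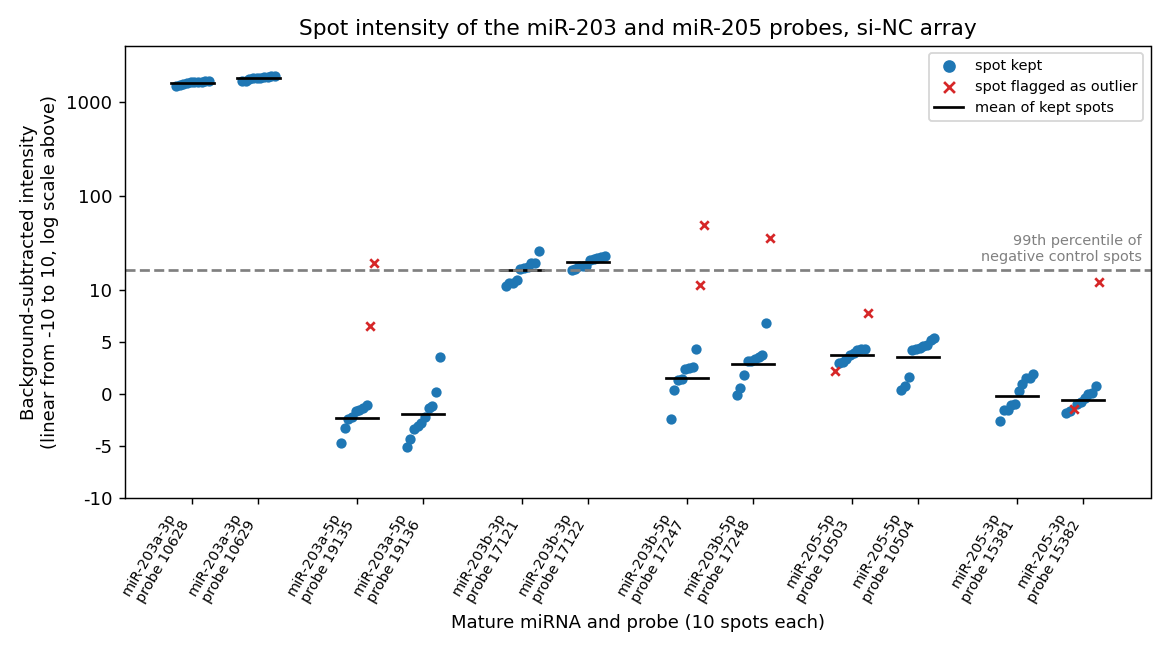
Background-subtracted intensity of each of the 10 spots of the 12 member probes, on an axis that is linear close to 0 and logarithmic above 10. Circles are spots kept, crosses are spots flagged as outliers, black bars are means of kept spots and the dashed line is the 99th percentile of negative control spots, 16.1. The spots of miR-203a-3p start at 1506, those of miR-203b-3p lie around the line, and the kept spots of the other members reach 6.75 at most.

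The 3p arms of MIR203A and MIR203B were thus called detected and their 5p arms were not. The 20 spots of miR-203a-5p ran from -5.11 to 19.3 with a median of -1.98, and 16 of them were below 0. Probe A_25_P00019135 had a mean of -2.30 ± 1.21 (SD, 8 spots kept) and A_25_P00019136 a mean of -1.99 ± 2.48 (SD, 10 spots). The best of these probes reached -0.76 times its error, so the passenger arm of MIR203A gave no signal over background.

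miR-203b-5p had spots from -2.45 to 49.2 with a median of 2.85. Its probe A_25_P00017247 had a mean of 1.55 ± 1.98 (SD, 8 spots kept) and A_25_P00017248 a mean of 2.86 ± 1.997 (SD, 9 spots kept). The best probe reached 1.09 times its error, a ratio that 24.6% of undetected miRNAs equalled or passed. By a weaker flag of the software, which marks spots with a positive signal that differs from background, 10 of 20 spots of miR-203b-5p passed, as many as or fewer than in 19% of undetected miRNAs, and 3 of 20 spots of miR-203a-5p passed. The highest spot that was not an outlier was 6.75. Over miR-203a-5p, miR-203b-5p and both miR-205 arms, 3 spots were well above background, and 3 of these 3 were outlier spots. For undetected miRNAs of the whole array that share was 92.9% of 312 such spots.

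Of the 810 hairpin names with both arms on the array, 15.1% had the 3p arm alone called detected, as MIR203A and MIR203B did, and 36.2% had neither, as MIR205 did. Both arms were called detected for 28.6% and the 5p arm alone for 20.1%. Each of these patterns was thus common on the array.

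miR-205-5p, the arm known for repression of the ZEB factors, was not called detected, yet its spots lay slightly above 0. The 20 spots ran from 0.314 to 7.79 with a median of 4.19, and 0 of 20 were well above background. Probe A_25_P00010503 had a mean of 3.72 ± 0.556 (SD, 8 spots kept) and A_25_P00010504 a mean of 3.53 ± 1.90 (SD, 10 spots). No spot was below 0, and the 2 probes gave means within their SDs of each other. The probes reached 1.41 and 1.34 times their error, below the limit of 3.

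By the weaker flag, 16 of 20 spots of miR-205-5p passed. The same flag was set for 9.9% of negative control spots, and the median over undetected miRNAs was 2 of 20 spots. Of the 1416 undetected miRNAs, 9.46% had 16 or more such spots and 19% had a best probe at or above 1.41 times its error. Among negative control spots, 5.8% were at or above the median kept spot of miR-205-5p, 4.19. By that count of spots miR-205-5p was 1 of 134 undetected miRNAs with such an offset, and whether the offset comes from miR-205-5p itself was not tested.

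The other arm, miR-205-3p, stayed at background. Its 20 spots ran from -2.62 to 12.1 with a median of -0.600, with 0 of 20 well above background and 1 of 20 passing the weaker flag. Probe A_25_P00015381 had a mean of -0.177 ± 1.60 (SD, 10 spots) and A_25_P00015382 a mean of -0.606 ± 0.904 (SD, 8 spots kept). The highest spot, 12.1, was an outlier spot.

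**Figure D3:**
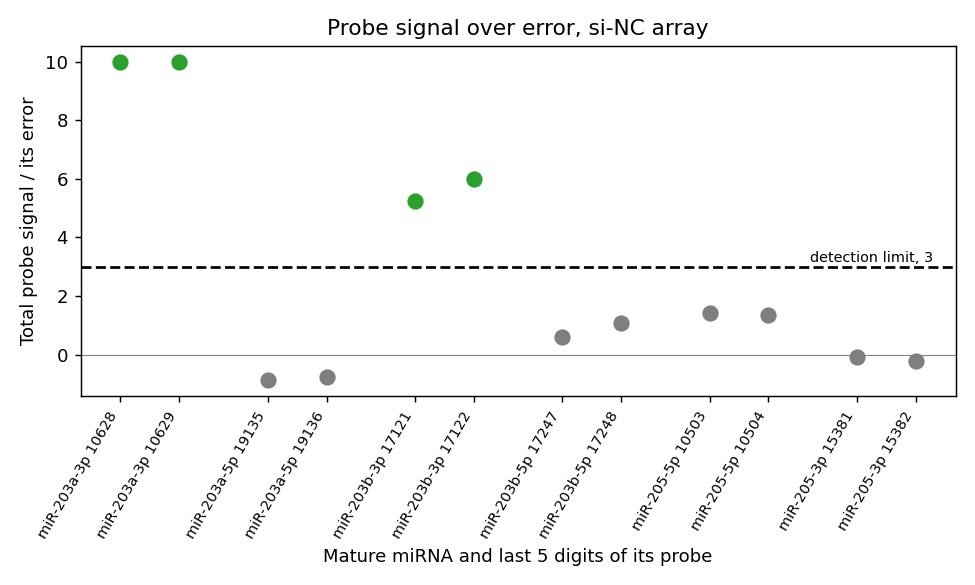
Total probe signal divided by its error from the software for the 12 member probes, with the detection limit of 3 as a dashed line. Green points are past the limit and grey points are not. Both probes of miR-203a-3p are at 9.99, those of miR-203b-3p are at 5.23 and 5.99, and those of miR-205-5p at 1.41 and 1.34 are the highest of the undetected members.

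By probe, 4 of the 12 member probes had at least 50% of their kept spots well above background, the 4 probes of miR-203a-3p and miR-203b-3p. Over all 5893 miRNA probes that share was 32.9%. With the weaker flag in its place 7 of the 12 passed, which added both probes of miR-205-5p and 1 of miR-203b-5p, against 52.7% of all probes. By the well above background flag the 2 probes of each member fell on the same side, whereas by the weaker flag those of miR-203b-5p did not, with 1 of 8 kept spots passing on A_25_P00017247 and 6 of 9 on A_25_P00017248. For miR-203a-3p and miR-203b-3p both probes were past the detection limit.

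Sequence shared with other miRNAs of the array was short, as far as the 2248 with a RefSeq mature sequence show. The rest of the 2549 were not compared. The longest run that miR-203a-3p shared with another miRNA was 9 bases, with hsa-miR-545-5p, which was also called detected. For miR-203b-3p it was 8 bases, shared with 4 miRNAs of which 1, hsa-miR-140-3p, was called detected. miR-203a-3p and miR-203b-3p shared a run of 6 bases with each other. For miR-205-5p the longest run was 8 bases, shared with 4 miRNAs of which 3 were called detected, hsa-miR-135b-5p, hsa-miR-3130-3p and hsa-miR-6778-3p. Whether any of these bound the member probes was not tested.

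Each log2 intensity was also taken relative to a reference of 142.6, the 75th percentile of the kept spots of detected miRNAs. On this scale miR-203a-3p reached 3.59 ± 0.06 (SD of spots about their probe, 20 spots) and miR-203b-3p reached -3.03 ± 0.31. These values place each miRNA against the array and are not a comparison of amounts, because different probes bind their targets with different strength.

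The table of processed log2 values that the authors deposited gave 9.20 for miR-203a-3p and 2.70 for miR-203b-3p. It gave 2.32 for the other 4 members, which is the lowest value of that table. That floor was shared by 1416 miRNAs, as many as were not called detected, so it is no separate check of the calls. miR-203b-3p was thus 0.38 above that floor. With a limit of 1 log2 unit above the floor, passed by 25.3% of all miRNAs, miR-203a-3p was the 1 member left.

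The label of squamous and keratinocyte miRNAs was then set against other miRNAs of epithelial lineages. Beside the members, the stratified epithelial list held 4 arms. miR-184, known from cornea and epidermis, was not called detected, with 0 of 20 spots well above background and 17 of 20 passing the weaker flag, a pattern like that of miR-205-5p. miR-944, which lies within an intron of TP63, was not called detected either, with 0 of 20 and 2 of 20. miR-31, which is induced in proliferating keratinocytes and also known from colorectal carcinoma, gave signal from both arms, with total gene signals of 282 ± 20.5 for miR-31-5p and 213 ± 15.2 for miR-31-3p.

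The list named glandular epithelial held the miR-200 family alone and gave signal in full. That family was tied above to the epithelial state in general, so this list cannot tell glandular from stratified epithelium. All 9 arms of the miR-200 family on the list (miR-200a, miR-200b, miR-200c, miR-141 and miR-429) were called detected, with total gene signals from 55.3 for miR-200b-5p to 9249 for miR-200b-3p and 20 of 20 spots well above background for each. Of the intestinal list (miR-192, miR-194 and miR-215), 5 of 6 arms were called detected, against 44.4% of all miRNAs, and miR-215-3p was not. Of these, miR-194-3p was marginal, at 2.71 ± 0.390 with 8 of 20 spots well above background. The count was 4 where every probe had to pass, with a total gene signal of 5 or more, and by the deposited value. Of the miRNAs linked to stratified epithelium, miR-203a-3p, miR-203b-3p and both arms of miR-31 were thus called detected, while both arms of miR-205, miR-184 and miR-944 were not. The members at 2 of 6 and the stratified list at 2 of 4 were both near the 44.4% of all miRNAs called detected, so these counts set neither apart from the array.

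Markers of stroma and vessel were read in the same way. Of 11 arms of miR-143, miR-145, miR-199a, miR-199b, miR-214 and miR-126, 2 were called detected, against 44.4% of all miRNAs. They were miR-126-3p at 123 ± 8.75 and miR-126-5p at 42.6 ± 3.19. The other 9, among them every arm of miR-143 and miR-145, were not. miR-199a-3p had 0 of 20 spots well above background and 20 of 20 passing the weaker flag, more than miR-205-5p.

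**Figure D4:**
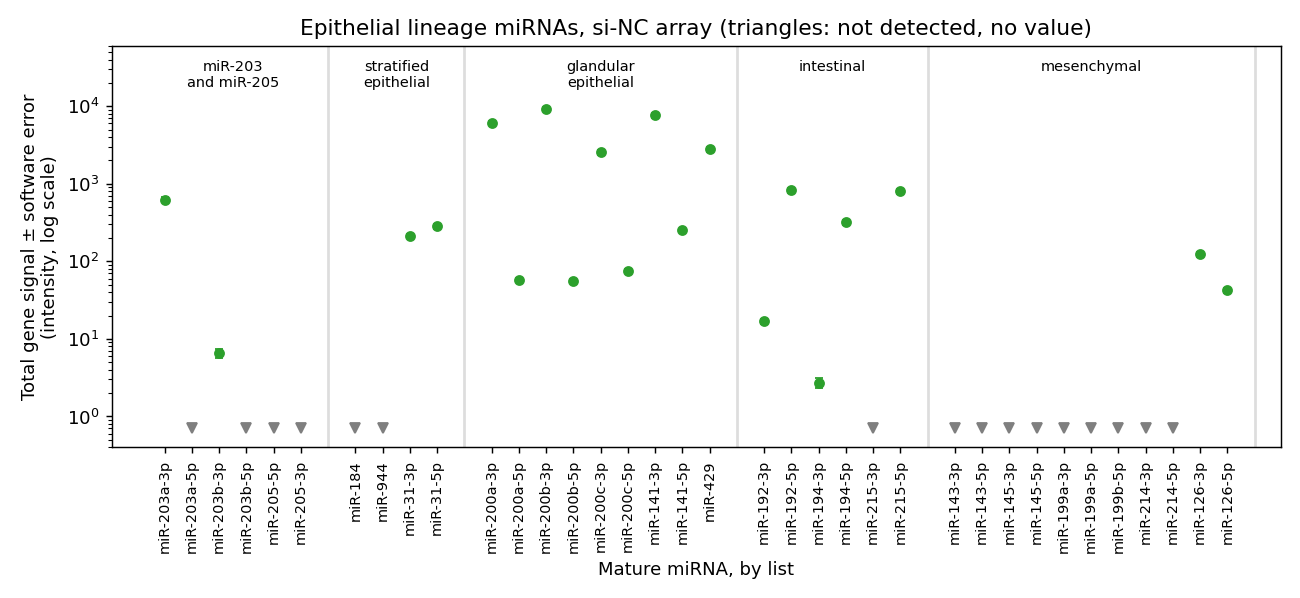
Total gene signal of each arm by list, on a log scale, with the error of the software as bars, which are mostly smaller than the points. Triangles at the foot are arms not called detected and have no value. Of the members, miR-203a-3p at 628 and miR-203b-3p at 6.55 have a value. All 9 of 9 arms of the list named glandular, which is the miR-200 family, do. Heights of different miRNAs are not a ranking of amount.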

How the data were processed

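Total RNA of 1 si-NC sample was hybridised to 1 Agilent array in a single colour. The labels describe ligation of RNA to Cyanine 3-pCp, whereas the methods of the study describe labelled cDNA. The deposited scanner file, made per the file headers with Feature Extraction 11.0.1.1 on a design of the hg19 build, holds background-subtracted intensity per spot, not normalized between arrays, with flags and total signals. The authors also deposited log2 values, quantile normalized in GeneSpring. 

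Detection was the flag of the software. Means, SDs and CVs were taken over spots not flagged as outliers, and log2 intensity was referred to the 75th percentile of such spots whose miRNA was detected. Total gene signals of undetected miRNAs are a placeholder of 0.1 and were not used as values. Alternatives were 5 other detection rules, each brightest probe left out, the weaker flag, another percentile, the brightest probe alone, medians, normexp (limma 3.58.1, R 4.3.3, offset 50), outlier spots kept and deposited values. Calculations ran in Python 3.11.15 (scipy 1.17.1, pandas 2.3.3, numpy 2.4.6, matplotlib 3.10.9). The calculation of CVs and probe differences was tested on simulated data. Simulated means were kept above those of the miR-203b-3p probes, so that test did not cover intensities close to background. Sequences and positions are those of RefSeq on GRCh38.p14, another build than that of the array design, and no coordinates were converted. All 6 members, every arm of the stratified list, arms of the other lists and miRNAs with a shared seed were to be named; miRNAs with a long shared run were chosen after their values were seen. Members and lists were chosen with earlier results of these data known. The number of arrays limits the precision.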

Additional observations from a re-analysis of the deposited data

Results flagged for a closer look

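Spots that the software flagged as outliers were left out of the means, and 3 of them exceeded 16.1, the 99th percentile of the negative controls, in members that were not called detected. They were a spot of 19.3 for miR-203a-5p on probe A_25_P00019135, a spot of 49.2 for miR-203b-5p on A_25_P00017247 and a spot of 35.4 for miR-203b-5p on A_25_P00017248. The highest kept spots of these arms were 3.51 and 6.75. With outlier spots kept, the number of member probes with 50% or more of spots well above background was again 4. That count could not change, because each of the 3 spots was on a different probe of 10 spots. The 4 probes that passed had no outlier spot.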

How the results depend on the processing

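Over 14 results, 52 alternative values were computed, of which 42 stayed within their limits and 10 moved. Neither detected member had an outlier spot, so keeping outlier spots could not change their probe differences or CVs. Those values are still counted among the 42, which therefore overstates how far the processing was varied. For differences between probes the limit was the SD of spots about their probe, not the SE of the difference. With normexp the difference for miR-203b-3p fell from 0.27 to 0.06. That change was smaller than the SD of 0.31, so it counted as within limits, but larger than the SE of 0.14. No paired analysis was possible because there was 1 array. The count of members called detected, 2, held under 4 other detection rules. Of these, the rule on total gene signal keeps the call of the software and could not add members. The count also held with the brightest probe of each arm left out. It was 1 with the deposited value more than 1 log2 unit above the floor, where miR-203b-3p was lost. Probes with enough spots rose from 4 to 7 of 12 under the weaker flag, which 52.7% of all probes passed. Relative to the array, miR-203a-3p moved from 3.59 to 6.03 where the kept spots of all miRNAs set the percentile. It moved to 3.14 with normexp, to 3.67 with the brightest probe alone and to 3.37 with deposited values. miR-203b-3p moved from -3.03 to -0.59 where the kept spots of all miRNAs set the percentile and the reference fell from 142.6 to 26.3. It moved to -1.41 with normexp, which adds its offset to each spot. Its CVs of 28.7% and 12.5% became 6.13% and 4.20% with normexp. For the others the cause was not tested. Counts of the 4 lineage lists stayed within 1.5 times. Signal over background limits miR-203b-3p and miR-205-5p.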
